A study of Mus musculus with 8 samples.

Results

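The CXC chemokines described here were 10 genes, Cxcl1, Cxcl2, Cxcl5, Cxcl9, Cxcl10, Cxcl12, Cxcl13, Cxcl14, Cxcl15 and Cxcl16, of 19937 genes measured on mouse lung arrays. Each was found by its symbol among the probe sets that carry exactly 1 gene symbol, and each had 1 such probe set. The lungs came from mice given mepenzolate, a muscarinic receptor antagonist, or vehicle into the trachea under chloral hydrate (500 mg/kg). The drug was given in PBS, and the strain, sex, age and drug dose were not given in the sources used here. Lungs were collected 25 h or 7 h after dosing, which made 4 groups of 2 arrays: mepenzolate at 25 h, vehicle at 25 h, mepenzolate at 7 h and vehicle at 7 h. The study asked what mepenzolate changes in the lung in connection with lower inflammation and oxidative stress, and no group in the labels was given an inflammatory stimulus.

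CXC chemokines are small secreted proteins that guide leukocytes along gradients to tissue. Those that carry a glutamate, leucine and arginine motif, such as Cxcl1, Cxcl2 and Cxcl5, act on Cxcr2 and draw neutrophils, and are induced through NF-kappaB and other routes when airway epithelium, macrophages or endothelium are stimulated. Cxcl9, Cxcl10 and Cxcl11 are induced by interferons and draw activated T cells and natural killer cells through Cxcr3. Cxcl12, Cxcl13, Cxcl14 and Cxcl16 are made in many resting tissues, and Cxcl15, also called lungkine, is a chemokine of mouse lung epithelium. The arrays held bulk RNA, so fewer cells of a type and less RNA per cell cannot be told apart.

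All levels below are log2 values on the scale of the array summary, and all differences are log2 differences with their moderated standard errors, 2 arrays per group unless stated. The number of arrays limits the precision, since arrays have no read depth, and the labels do not state whether 2 arrays of one group stand for 2 mice. P-values therefore reflect the variation among these samples alone, some of which may be technical. Arrays of the same group correlated at 0.988 to 0.993 over all probe sets (4 pairs), as did arrays of different groups (24 pairs), and probe sets are not independent replicates. Lung markers gave strong signal on all 8 arrays: Sftpc of alveolar type 2 cells lay at log2 13.49 to 13.56 and Scgb1a1 of club cells at 13.23 to 13.49. Marco, of alveolar macrophages, lay at 6.24 to 6.69. Replicate 2 of the mepenzolate group at 7 h stood apart in gene lists that mark cell types. Its liver list averaged 0.73 above the mean of the 8 arrays, against -0.20 to -0.04 on the other 7. The club and secretory list there averaged -0.65, against -0.08 to 0.44, and the ciliated list -0.48, against -0.12 to 0.21. Platelet genes averaged -0.50 on that array, against -0.23 to 0.22, monocyte genes -0.15, against -0.06 to 0.14, and alveolar macrophage genes -0.13, against -0.03 to 0.07. For 270 of 14953 genes tested (1.81%) that array lay farther from the others than the others spread, and for 443 (2.96%) replicate 2 of mepenzolate at 25 h did so. For each CXC ligand, receptor and induced gene named below that was highest or lowest on the 7 h array, the 7 h difference is given with and without it. For Alb and Gm4951 the correlation with Cxcl9 is given with and without it instead.

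No CXC chemokine changed with mepenzolate at either time or with time in any comparison by limma at an adjusted p under 0.05, adjusted over all 14953 genes tested. Cxcl2 and Cxcl5 lay below the filter on low signal (a mean of log2 5.93, the 25th percentile of genes), so 8 of the 10 were tested. Of those 8, 0 passed for mepenzolate against vehicle at 25 h, where 0% of genes tested passed, and 1 had an unadjusted p under 0.05. At 7 h 0 of 8 passed, again against 0% of genes tested, and 1 had an unadjusted p under 0.05. That gene was Cxcl10, which reached the filter only through its high mepenzolate arrays at 7 h. Over all genes the unadjusted p was under 0.05 for 599 at 25 h and 357 at 7 h. The differences that stood out within the family were Cxcl9 and Cxcl10 on 1 mepenzolate array at 7 h, Cxcl14 between treatments at 25 h, and Cxcl15 and Cxcl14 between the times. The plot of levels by group shows all 10 genes on panels of equal span.

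**Figure D1:**
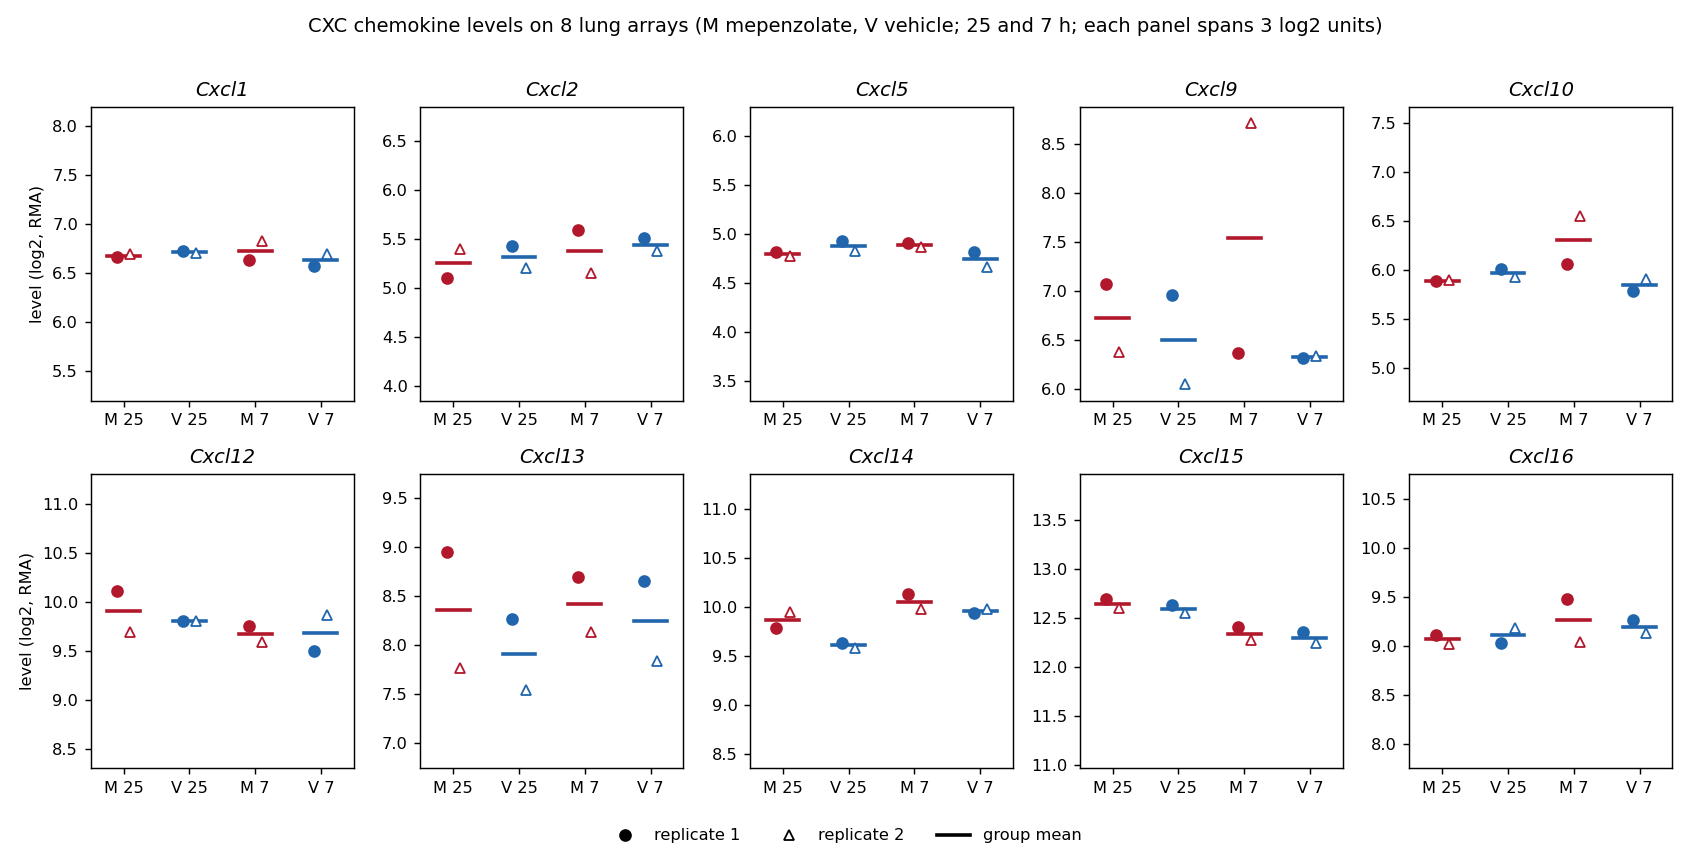
Levels of the 10 CXC chemokines (log2, vertical axis) in mepenzolate (M, red) and vehicle (V, blue) lungs at 25 h and 7 h. Filled circles are replicate 1, open triangles replicate 2 and bars group means, and each panel spans 3 log2 units. Cxcl9 at 8.71 on the second mepenzolate array at 7 h is the point farthest from its group partner.

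Among the neutrophil-attracting ligands, Cxcl1 (probe set 10523151, chromosome 5) was nearly flat. Its level at 25 h was 6.67 and 6.70 in mepenzolate lungs, against 6.73 and 6.70 in vehicle lungs. Values at 7 h were 6.63 and 6.83 in mepenzolate lungs, against 6.57 and 6.69 in vehicle lungs. The highest array was replicate 2 of mepenzolate at 7 h, and all 8 arrays lay within 0.25. The difference was -0.03 ± 0.09 at 25 h (limma, adjusted p = 0.988) and 0.10 ± 0.09 at 7 h (adjusted p = 1.00). The 25 h value turned to 0.01 after quantile normalization, and the 7 h value was -0.0011 without replicate 2 of mepenzolate.

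Cxcl2 (probe set 10523156, chromosome 5), a close relative of Cxcl1 made by macrophages and other cells, lay below the filter. Mepenzolate lungs at 25 h gave 5.11 and 5.40, against 5.43 and 5.21 in vehicle lungs. Mepenzolate lungs at 7 h gave 5.60 and 5.16, against 5.51 and 5.38 in vehicle lungs. Mepenzolate and vehicle arrays overlapped at both times, and the 2 arrays of a group differed by up to 0.44. In a fit without the filter the difference was -0.07 ± 0.16 at 25 h and -0.07 ± 0.16 at 7 h.

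Cxcl5 (probe set 10523120, chromosome 5), known in mouse as a product of alveolar epithelium and platelets, also lay below the filter. At 25 h it read 4.82 and 4.78 in mepenzolate lungs, against 4.93 and 4.83 in vehicle lungs. Readings at 7 h were 4.91 and 4.87 in mepenzolate lungs, against 4.82 and 4.67 in vehicle lungs. Mepenzolate arrays were below vehicle arrays at 25 h and above them at 7 h, with no overlap at either time, but all 8 arrays spanned only 0.26. Without the filter the difference was -0.08 ± 0.09 at 25 h and 0.15 ± 0.09 at 7 h.

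The neutrophil marker list (11 genes, Cxcr2 among them) averaged -0.13 to 0.00 in mepenzolate lungs at 25 h, against 0.04 to 0.25 in vehicle lungs. The 7 h averages were 0.00 to 0.11 in mepenzolate lungs and -0.30 to 0.04 in vehicle lungs. The lowest of the 8 arrays was replicate 2 of vehicle at 7 h, at -0.30. The part of neutrophils in the levels of Cxcl1, Cxcl2 and Cxcl5 was not tested. Cxcr2, the neutrophil receptor of these ligands, differed by -0.19 ± 0.19 at 25 h and 0.42 ± 0.19 at 7 h, and neither passed (limma, adjusted p = 0.979 at 25 h and 1.00 at 7 h). Its 7 h difference was 0.13 without replicate 2 of vehicle, where Cxcr2 was lowest (8.25), and 0.32 without replicate 2 of mepenzolate, where it was highest (9.07).

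The promoters of Cxcl1 and Cxcl2 hold a motif of NF-kappaB, through which these 2 genes are known to be induced. They are printed from RefSeq's table of GRCm38.p6, 250 bases before to 50 after the start, as read along the gene. Cxcl1 lies on the plus strand at chr5:90890995-90891294 and Cxcl2 on the plus strand at chr5:90903649-90903948. Capitals mark the NF-kappaB motif GGGANNTTCC, searched on both strands; here the matches on the 2 strands overlap by all but 1 base.
Cxcl1: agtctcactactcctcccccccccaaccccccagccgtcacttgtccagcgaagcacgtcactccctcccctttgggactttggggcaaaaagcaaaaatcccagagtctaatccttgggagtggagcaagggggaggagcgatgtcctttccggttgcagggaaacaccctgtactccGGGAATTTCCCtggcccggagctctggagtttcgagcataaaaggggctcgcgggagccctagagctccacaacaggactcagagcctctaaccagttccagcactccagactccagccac
Cxcl2: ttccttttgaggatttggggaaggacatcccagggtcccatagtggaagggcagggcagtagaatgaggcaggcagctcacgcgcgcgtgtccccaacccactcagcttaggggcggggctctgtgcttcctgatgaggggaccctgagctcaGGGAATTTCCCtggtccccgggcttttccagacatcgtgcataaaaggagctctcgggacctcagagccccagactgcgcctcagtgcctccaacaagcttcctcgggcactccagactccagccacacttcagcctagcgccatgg
The match begins at -71 in Cxcl1 and at -97 in Cxcl2, with -1 the last base before the start site, and both read GGGAATTTCC. That motif occurred in 1.47% of 32851 promoters of the same length, and a shorter form, GGGANTTCC, in 1.68%. A match is a description of letters and not evidence of binding. Of the other neutrophil attractants among the 10, Cxcl5 had no promoter entry and Cxcl15 held no NF-kappaB match.

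Of 18 genes known to be induced by NF-kappaB in inflammation, 17 were tested and 0 passed at either time. At 25 h 6 were higher and 11 lower in mepenzolate lungs, with a median difference of -0.05, against -0.02 over all genes tested. At 7 h 13 were higher and 4 lower, with a median of 0.11, against -0.01 over all genes. Without replicate 2 of mepenzolate the counts were 14 and 3, with a median of 0.14, against 0.0046 over all genes. Ccl2, a monocyte chemokine, read 6.73 and 7.10 in mepenzolate lungs at 7 h, against 6.37 and 6.72 in vehicle lungs (0.37 ± 0.15, limma, unadjusted p = 0.0373, adjusted p = 1.00). It was highest on replicate 2 of mepenzolate, and the difference was 0.18 without that array. Nfkbia, which encodes an NF-kappaB inhibitor, was lower on both mepenzolate arrays than on both vehicle arrays at 7 h (-0.24 ± 0.09, unadjusted p = 0.0308, adjusted p = 1.00). The 2 genes thus lay on opposite sides of vehicle at 7 h, and neither passed.

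Among the Cxcr3 ligands, Cxcl9 (probe set 10531407, chromosome 5) varied most of the 10 genes. At 25 h it read 7.07 and 6.38 in mepenzolate lungs, against 6.96 and 6.05 in vehicle lungs. At 7 h it read 6.37 and 8.71 in mepenzolate lungs, against 6.32 and 6.34 in vehicle lungs. Replicate 2 of mepenzolate at 7 h lay 1.64 above the next array, a gap wider than the 1.02 spanned by the other 7 arrays, while replicate 1 of the same group lay above both vehicle arrays by a margin under the spread seen at 25 h. The difference at 7 h was 1.21 ± 0.65 (limma, unadjusted p = 0.0986, adjusted p = 1.00), 0.05 without replicate 2 of mepenzolate and 2.38 without replicate 1. At 25 h the difference was 0.22 ± 0.65, and arrays of the treatments overlapped.

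Cxcl10 (probe set 10531415, chromosome 5), which is induced by both interferon and NF-kappaB, was high on the same array. Its level at 25 h was 5.89 and 5.90 in mepenzolate lungs, against 6.01 and 5.93 in vehicle lungs. Its level at 7 h was 6.06 and 6.55 in mepenzolate lungs, against 5.78 and 5.91 in vehicle lungs. Replicate 2 of mepenzolate at 7 h was highest, 0.49 above the next array, where the other 7 arrays spanned 0.27. Both mepenzolate arrays at 7 h were above both vehicle arrays (0.46 ± 0.15, limma, unadjusted p = 0.0140, adjusted p = 1.00), and the difference was 0.21 without replicate 2 of mepenzolate. Cxcl10 reached the filter only through its high mepenzolate arrays at 7 h. Its p-values that involve that group are therefore descriptions and not support for a difference. At 25 h both mepenzolate arrays lay below both vehicle arrays by a small margin (-0.08 ± 0.15). The mepenzolate effect differed between 25 h and 7 h by -0.53 ± 0.21 (unadjusted p = 0.0318, adjusted p = 1.00), and by -0.29 without replicate 2 of mepenzolate at 7 h.

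Cxcl11, the remaining Cxcr3 ligand and not among the 10, gave 5.43 and 5.66 in mepenzolate lungs at 25 h, against 5.72 and 5.65 in vehicle lungs. Cxcl11 at 7 h gave 5.69 and 6.36 in mepenzolate lungs, against 5.43 and 5.48 in vehicle lungs. It too was highest on replicate 2 of mepenzolate at 7 h, 0.64 above the next array. Its mean was below the filter, and a fit without the filter gave 0.57 ± 0.19 at 7 h (limma, unadjusted p = 0.0164, adjusted p = 1.00). Without that array the Cxcl11 difference was 0.24. Over the 8 arrays Cxcl9 correlated with Cxcl10 at r = 0.88, and over the 7 arrays without that one at 0.16. Cxcl9 and Cxcl11 correlated at 0.82 over 8 arrays and -0.12 over 7. Cxcl10 and Cxcl11 correlated at 0.97 over 8 arrays and 0.77 over 7. These are descriptions, since the genes of a pair were read on the same arrays.

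Upstream of Cxcl9 and Cxcl10, which moved together on that array, the 300 bases around the start are printed to show which known elements each holds. Both lie on the minus strand of GRCm38.p6, Cxcl9 at chr5:92328030-92328329 and Cxcl10 at chr5:92348840-92349139, and both are read along the gene. Capitals mark GGGANTTCC in Cxcl9. In Cxcl10 they mark, from the 5′ end, the interferon-stimulated response element GAAANNGAAA, then GGGANNTTCC, then GGGANTTCC, with none of the 3 overlapping.
Cxcl9: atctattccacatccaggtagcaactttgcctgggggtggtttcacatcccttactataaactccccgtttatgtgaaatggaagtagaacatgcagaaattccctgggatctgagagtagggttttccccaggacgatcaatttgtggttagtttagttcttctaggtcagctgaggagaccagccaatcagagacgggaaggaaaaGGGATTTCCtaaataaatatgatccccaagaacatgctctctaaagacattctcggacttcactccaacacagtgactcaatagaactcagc
Cxcl10: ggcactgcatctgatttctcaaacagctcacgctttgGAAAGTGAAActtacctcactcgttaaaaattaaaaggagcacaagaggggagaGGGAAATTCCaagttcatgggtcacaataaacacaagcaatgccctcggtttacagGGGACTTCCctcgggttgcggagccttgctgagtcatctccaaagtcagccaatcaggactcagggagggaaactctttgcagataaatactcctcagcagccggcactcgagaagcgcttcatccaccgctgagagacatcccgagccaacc
Cxcl9 held GGGATTTCC at -42. Cxcl10 held GAAAGTGAAA at -213, GGGAAATTCC at -159 and GGGACTTCC at -103. The response element occurred in 3.44% of promoters and either NF-kappaB form in 3.12%. Of the gamma-activated site, TTCNNNGAA, neither window held a match, against 8.3% of all promoters with one, nor of the E-box CACGTG, held by 7.15%. No match says only that these letters are not in this window. Of the 10 genes 8 had a promoter entry, and 5 of those held at least 1 of the motifs searched. Cxcl14 had GAAACAGAAA at -172 and TTCTGAGAA at -191, and Cxcl12, Cxcl13 and Cxcl15 had none.

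The array with high Cxcl9 also had other interferon-gamma induced genes at their highest. Of 15 such genes on the array 7 had their highest level there, against 10.8% of all genes tested, and the list averaged 0.16, against -0.08 to 0.06 on the other 7 arrays. Iigp1, an interferon-inducible GTPase, read 8.23 and 8.84 in mepenzolate lungs at 7 h, against 7.89 and 7.90 in vehicle lungs (0.64 ± 0.22, limma, unadjusted p = 0.0198, adjusted p = 1.00), and the Iigp1 difference was 0.33 without replicate 2 of mepenzolate. The T and NK cell list averaged -0.12 on that array, against -0.12 to 0.11 on the others, and the neutrophil list 0.11, against -0.30 to 0.25. On the same array 5 of 6 liver genes were at their highest, and 6 of 8 club and secretory genes, 5 of 6 ciliated genes and 5 of 5 platelet genes were at their lowest. All genes tested were at their lowest there in 21% of cases. The platelet list includes Pf4 and Ppbp, CXC ligands described below. The part of these markers in the Cxcl9, Cxcl10 and Cxcl11 levels was not tested. The plot of single genes and list means by array shows them side by side.

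**Figure D2:**
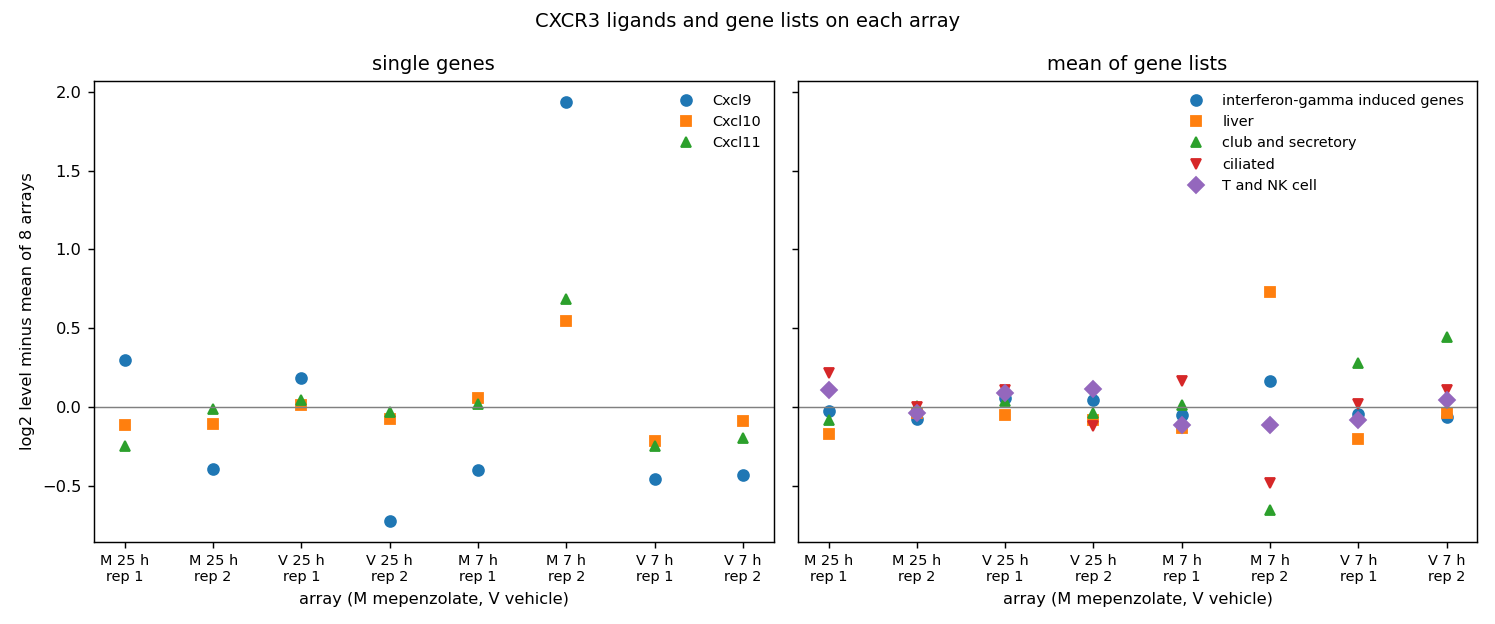
Deviation of each array (horizontal axis) from the mean of the 8 arrays in log2 units (vertical axis), for Cxcl9, Cxcl10 and Cxcl11 (left) and for the mean of 5 gene lists (right). Replicate 2 of mepenzolate at 7 h is the highest array for all 3 genes and for the liver list (0.73), and the lowest for the club and secretory list (-0.65) and the ciliated list (-0.48).

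Of the interferon-gamma induced genes 14 were tested and 0 passed in either comparison of mepenzolate with vehicle. At 25 h 6 were higher and 8 lower in mepenzolate lungs, with a median of -0.03, against -0.02 over all genes tested. At 7 h 9 were higher and 5 lower, with a median of 0.08, against -0.01 over all genes. Without replicate 2 of mepenzolate at 7 h the list turned to 6 higher and 8 lower, with a median of -0.04. Over all genes tested the median without that array was 0.0046. The smallest unadjusted p of the list was that of Gbp4, a guanylate-binding protein, at 25 h. Gbp4 read 8.65 and 8.33 in mepenzolate lungs at 25 h, against 9.52 and 9.38 in vehicle lungs (-0.96 ± 0.16, limma, unadjusted p = 0.00029, adjusted p = 0.979). Cxcr3, the receptor of Cxcl9 and Cxcl10 on T and NK cells, gave 7.14 and 7.29 in mepenzolate lungs at 25 h, against 7.56 and 7.39 in vehicle lungs (-0.26 ± 0.10, unadjusted p = 0.0294, adjusted p = 0.979). At 7 h Cxcr3 differed by 0.07 ± 0.10. Gbp4 and Cxcr3 were thus lower on both mepenzolate arrays at 25 h, without passing. Of all 14953 genes tested, 3343 were lower on both mepenzolate arrays than on both vehicle arrays at 25 h. Of the 9 receptors tested 6 were higher and 3 lower in that comparison.

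By the measure of likeness used, the 3 genes closest to Cxcl9 over the 8 arrays among 2246 candidates were Gm4951 (r = 0.91), Alb (0.90) and Cxcl10 (0.88). Alb, which encodes albumin, was 8.93 on replicate 2 of mepenzolate at 7 h, against 5.94 to 6.39 on the other 7. Without that array r was 0.52 for Gm4951, -0.06 for Alb and 0.16 for Cxcl10. The likeness of Alb and Cxcl10 to Cxcl9 therefore rested on 1 array.

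Cxcl12 (probe set 10541075, chromosome 6), the ligand of Cxcr4 and Ackr3 that holds leukocytes and progenitors in tissue, showed no order by treatment. At 25 h it read 10.12 and 9.70 in mepenzolate lungs, against 9.81 and 9.81 in vehicle lungs. Cxcl12 at 7 h read 9.75 and 9.60 in mepenzolate lungs, against 9.50 and 9.87 in vehicle lungs. Mepenzolate and vehicle arrays overlapped at both times, and the highest array was replicate 1 of mepenzolate at 25 h. Differences were 0.10 ± 0.16 at 25 h and -0.01 ± 0.16 at 7 h, the second turning to 0.01 after quantile normalization or median centring. Cxcr4 differed by 0.01 ± 0.16 at 25 h and 0.05 ± 0.16 at 7 h (0.20 without replicate 2 of mepenzolate, where it was lowest), and Ackr3, which removes Cxcl12, by 0.06 ± 0.15 at 25 h and -0.13 ± 0.15 at 7 h.

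Cxcl13 (probe set 10523359, chromosome 5), the B cell attractant that acts on Cxcr5, differed more between replicate arrays than between groups. In mepenzolate lungs at 25 h it read 8.94 and 7.76, against 8.27 and 7.54 in vehicle lungs. In mepenzolate lungs at 7 h it read 8.69 and 8.13, against 8.65 and 7.83 in vehicle lungs. Replicate 1 was above replicate 2 in all 4 groups, by 1.19 in mepenzolate lungs at 25 h, 0.73 in vehicle lungs at 25 h, 0.56 in mepenzolate lungs at 7 h and 0.82 in vehicle lungs at 7 h. Of all genes tested 11.9% had replicate 1 above replicate 2 in every group and 7.64% had it below. Among the 10 chemokines Cxcl15 (by 0.08 to 0.13) and Cxcl5 (by 0.03 to 0.15) also had replicate 1 above in every group. Differences between treatments were 0.45 ± 0.43 at 25 h and 0.17 ± 0.43 at 7 h (limma, adjusted p = 0.979 at 25 h and 1.00 at 7 h), both with overlapping arrays.

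The B cell marker list, of which 7 genes were on the array, did not show that order. It averaged 0.22 to 0.47 in mepenzolate lungs at 25 h and -0.19 to 0.56 in vehicle lungs at 25 h. At 7 h it averaged -0.33 to -0.28 in mepenzolate lungs and -0.41 to -0.04 in vehicle lungs. Over replicates it ran from -0.33 to 0.22 on replicate 1 arrays and from -0.41 to 0.56 on replicate 2 arrays, so the ranges overlapped. Cxcr5 differed by 0.32 ± 0.17 between treatments at 25 h and by -0.02 ± 0.17 at 7 h. The genes closest to Cxcl13 over the 8 arrays were Syt5 (r = 0.91), AI506816 (0.91) and Abhd18 (0.90), and without the array farthest from the Cxcl13 median r was 0.96 for Syt5, 0.87 for AI506816 and 0.88 for Abhd18. Syt5 encodes a synaptotagmin, and its level was 8.59 and 8.18 in mepenzolate lungs at 25 h, 8.37 and 8.01 in vehicle lungs at 25 h, 8.83 and 8.21 in mepenzolate lungs at 7 h and 8.74 and 8.09 in vehicle lungs at 7 h. Replicate 1 of Syt5 was thus the higher in every group, as for Cxcl13. Syt5 was picked among 2246 candidates by its correlation with Cxcl13 on these arrays, so the shared order is not separate support.

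Cxcl14 (probe set 10409579, chromosome 13), a chemokine of resting epithelia and stroma, read 9.78 and 9.94 in mepenzolate lungs at 25 h, against 9.64 and 9.58 in vehicle lungs. Cxcl14 at 7 h read 10.13 and 9.98 in mepenzolate lungs, against 9.94 and 9.98 in vehicle lungs. Both mepenzolate arrays were above both vehicle arrays at 25 h, while the groups overlapped at 7 h. The difference was 0.25 ± 0.09 at 25 h (limma, unadjusted p = 0.0231, adjusted p = 0.979) and 0.09 ± 0.09 at 7 h. Averaged over both times it was 0.17 ± 0.06 (unadjusted p = 0.0269, adjusted p = 0.999). Leaving out 1 array at a time moved the 25 h value between 0.17 and 0.34.

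Cxcl15 (probe set 10523145, chromosome 5), which draws neutrophils in mouse lung, ordered the arrays by time and not by treatment. Mepenzolate lungs had 12.69 and 12.60 at 25 h, against 12.63 and 12.55 in vehicle lungs. Mepenzolate lungs had 12.40 and 12.27 at 7 h, against 12.35 and 12.24 in vehicle lungs. Treatments overlapped at both times, with differences of 0.05 ± 0.09 at 25 h and 0.04 ± 0.09 at 7 h.

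Cxcl16 (probe set 10387890, chromosome 11), a membrane-bound ligand of Cxcr6 that proteases release, read 9.11 and 9.02 in mepenzolate lungs at 25 h, against 9.03 and 9.18 in vehicle lungs. At 7 h it read 9.48 and 9.04 in mepenzolate lungs, against 9.26 and 9.13 in vehicle lungs. Replicate 1 of mepenzolate at 7 h was highest and the treatments overlapped at both times. Differences were -0.04 ± 0.14 at 25 h and 0.07 ± 0.14 at 7 h. Of 6 genes for sheddases and proteases of chemokines 0 passed at either time. Adam17, which sheds membrane proteins, differed by -0.02 ± 0.10 at 25 h and 0.03 ± 0.10 at 7 h, and Cxcr6 by 0.09 ± 0.14 at 25 h and 0.24 ± 0.14 at 7 h.

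**Figure D3:**
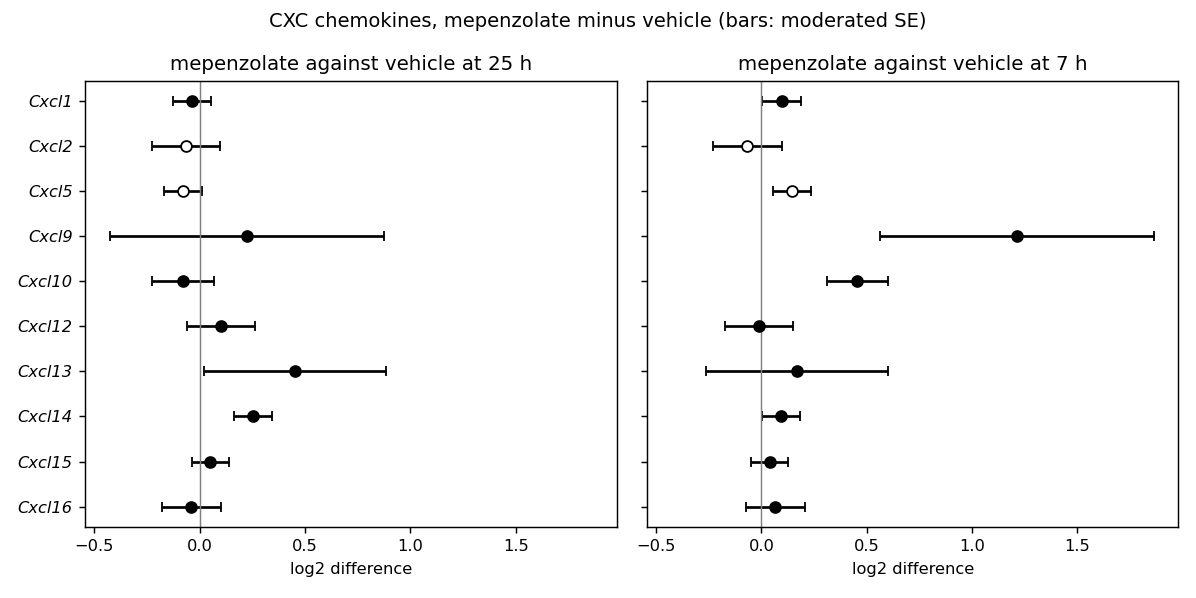
Log2 difference of mepenzolate minus vehicle (horizontal axis) for each CXC chemokine (vertical axis) at 25 h (left) and 7 h (right). Points are fitted differences from 2 arrays per group, bars are moderated standard errors, and open circles are the 2 genes below the filter. Cxcl9 at 7 h has the widest displacement from 0 (1.21 ± 0.65) and Cxcl14 at 25 h stands at 0.25 ± 0.09.

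Counted as a family, the 8 genes tested had differences of mixed sign at 25 h and mostly positive ones at 7 h, and none passed the test. At 25 h 5 were higher and 3 lower in mepenzolate lungs, with a median difference of 0.07, against -0.02 over all genes tested. At 7 h 7 were higher and 1 lower, with a median of 0.09, against -0.01 over all genes. Without replicate 2 of mepenzolate these counts were also 7 and 1, with a median of 0.14, and the lower gene was Cxcl1. The median over all genes tested was 0.0046 without that array. With all arrays, the 1 lower gene at 7 h, Cxcl12, was higher after quantile normalization or median centring, as was Cxcl1 at 25 h after quantile normalization. Arrays did not overlap for 3 of the 8 at 25 h, where 36.6% of all genes tested did not overlap. They did not overlap for 2 of the 8 at 7 h, Cxcl9 and Cxcl10, where the share of all genes was 23.7%. Cxcl10 is among the 8 only through its high mepenzolate arrays at 7 h. These counts are near what all genes gave. With all 4 arrays of each treatment set against each other, 0 of the 10 were without overlap, and 2.41% of all genes tested were. An exact permutation test of 4 against 4 arrays, two-sided, gave no p below 0.171 for treatment among the 10, and 0.857 was the smallest after Benjamini-Hochberg adjustment over the 10.

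Between the times, averaged over both treatments, Cxcl15 and Cxcl14 had the smallest p-values of the family, with Cxcl15 higher and Cxcl14 lower at 25 h. Neither passed the test. The averaged comparison over both treatments was added after the values were seen. Cxcl15 averaged 12.62 ± 0.06 at 25 h and 12.32 ± 0.07 at 7 h (SD, n = 4 each), and all 4 arrays at 25 h were above all 4 at 7 h. It differed by 0.30 ± 0.06 over both treatments (limma, unadjusted p = 0.00120, adjusted p = 0.131), by 0.31 ± 0.09 in mepenzolate lungs (adjusted p = 0.492) and by 0.30 ± 0.09 in vehicle lungs (adjusted p = 0.565). The adjusted p of the averaged comparison was 0.0262 with an intensity trend and robust estimation. The exact permutation p over 4 against 4 arrays was 0.0286, two-sided, the smallest this design can give, and 0.286 after adjustment over the 10 genes. Non-overlap of 4 against 4 arrays in this comparison held for 1 of the 8 genes tested, against 6.69% of all genes tested.

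Markers of lung epithelium stood beside Cxcl15 as follows. Of 8 alveolar type 2 genes, 1 was higher and 7 lower at 25 h over both treatments, with a median of -0.04. Their list averaged -0.06 to 0.04 at 25 h and -0.03 to 0.07 at 7 h, with overlap. The club and secretory list averaged -0.08 to 0.01 at 25 h and -0.65 to 0.01 at 7 h in mepenzolate lungs, the -0.65 being on replicate 2. In vehicle lungs it averaged -0.04 to 0.04 at 25 h and 0.28 to 0.44 at 7 h, without overlap. Of 6 ciliated genes, 6 were higher at 25 h over both treatments, with a median of 0.05, but 1 was higher and 5 lower in vehicle lungs. The ciliated list averaged -0.12 to 0.21 at 25 h and -0.48 to 0.16 at 7 h, with overlap. Of 6 alveolar type 1 genes, 3 were higher and 3 lower over both treatments. The part of these cells in the Cxcl15 levels was not tested.

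Cxcl14 averaged 9.74 ± 0.16 at 25 h and 10.01 ± 0.08 at 7 h (SD, n = 4 each), and arrays of the times overlapped by 1 mepenzolate array at 25 h. The difference over both treatments was -0.27 ± 0.06 (limma, unadjusted p = 0.00287, adjusted p = 0.180; exact permutation p = 0.0571). In mepenzolate lungs it was -0.19 ± 0.09 and in vehicle lungs -0.35 ± 0.09 (adjusted p = 0.826 in mepenzolate and 0.464 in vehicle lungs). Both pairs of groups were without overlap, and the difference between treatments in this change, 0.16 ± 0.13, did not pass (unadjusted p = 0.244, adjusted p = 1.00). The vehicle arrays at 25 h (9.64 and 9.58) were the lowest of all arrays for Cxcl14. They enter both the time difference and the treatment difference at 25 h, so these are not separate results.

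Cxcl10 differed between 25 h and 7 h by -0.41 ± 0.15 in mepenzolate lungs (limma, adjusted p = 0.641) and by 0.12 ± 0.15 in vehicle lungs. Without replicate 2 of mepenzolate at 7 h the first value was -0.17. Arrays of the times did not overlap for 3 of 8 genes tested in mepenzolate lungs, against 27.7% of all genes tested, and for 4 of 8 in vehicle lungs, against 43.1%. By limma 0 of 8 passed in mepenzolate lungs, vehicle lungs or over both treatments, against 0.0268%, 0.0869% and 0.221% of genes tested in these 3 comparisons. In each of them 2 of the 8 had an unadjusted p under 0.05. Of all 14953 genes tested, 952 had one in mepenzolate lungs, 859 in vehicle lungs and 1342 over both treatments. In mepenzolate lungs the 2 members were Cxcl15 and Cxcl10, and Cxcl10 reached the filter only through its high arrays at 7 h.

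**Figure D4:**
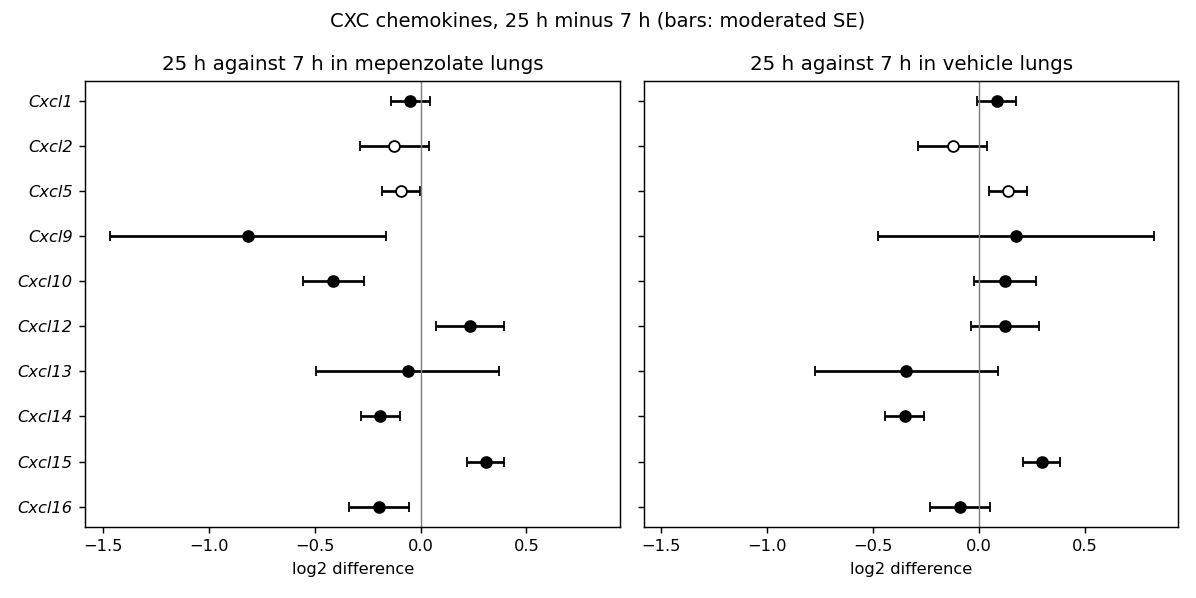
Log2 difference of 25 h minus 7 h (horizontal axis) for each CXC chemokine (vertical axis) in mepenzolate lungs (left) and vehicle lungs (right). Points are fitted differences from 2 arrays per group, bars are moderated standard errors, and open circles are the 2 genes below the filter. Cxcl15 lies at 0.31 and 0.30 in the left and right panel and Cxcl14 at -0.19 and -0.35.

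The other CXC ligands on the array were Cxcl3, Pf4, Ppbp, Cxcl11 and Cxcl17, of which 3 were bright enough to test and 0 passed. Cxcl3, a neutrophil attractant below the filter, read 5.14 and 5.31 in mepenzolate lungs at 25 h, against 5.43 and 5.22 in vehicle lungs. At 7 h it read 5.66 and 5.55 in mepenzolate lungs, against 5.34 and 5.34 in vehicle lungs (0.27 ± 0.10 without the filter, limma, unadjusted p = 0.0334, adjusted p = 1.00). Pf4, a platelet chemokine, differed by -0.17 ± 0.11 at 25 h and -0.20 ± 0.11 at 7 h (-0.10 without replicate 2 of mepenzolate, where Pf4 was lowest). Ppbp, another platelet product, differed by 0.04 ± 0.24 at 25 h and -0.39 ± 0.24 at 7 h, and was lowest (9.99) on replicate 2 of mepenzolate at 7 h. Without that array the Ppbp difference at 7 h was -0.07. Cxcl17, a product of airway mucosa, differed by -0.11 ± 0.18 at 25 h and -0.19 ± 0.18 at 7 h and was also lowest on that array, at 8.26. Without it the Cxcl17 difference at 7 h was 0.11.

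Of the 10 receptors and scavenging receptors 9 were tested and 0 passed in any comparison. Between treatments 6 were higher and 3 lower in mepenzolate lungs at 25 h (median 0.06), and 5 higher and 4 lower at 7 h (median 0.05). Without replicate 2 of mepenzolate the 7 h counts were 4 and 5. Between the times 8 of 9 were higher at 25 h over both treatments, with a median of 0.12, against 0.00 over all genes tested. Their mean deviation was 0.01 to 0.11 on the 4 arrays at 25 h, against -0.10 to -0.03 on the 4 arrays at 7 h, with no overlap. Cxcr5, the Cxcl13 receptor of B cells, was 6.36 and 6.48 in mepenzolate lungs at 25 h and 5.83 and 5.93 in mepenzolate lungs at 7 h. In vehicle lungs Cxcr5 was 5.85 and 6.35 at 25 h and 6.07 and 5.72 at 7 h. Over both treatments Cxcr5 differed by 0.37 ± 0.12 between the times (limma, unadjusted p = 0.0148, adjusted p = 0.358) and Cxcr6, the Cxcl16 receptor of T cells, by 0.30 ± 0.10 (unadjusted p = 0.0165, adjusted p = 0.377). Of 7 B cell genes 7 were higher at 25 h over both treatments, with a median of 0.57, and 6 had an unadjusted p under 0.05. The B cell list averaged -0.19 to 0.56 at 25 h and -0.41 to -0.04 at 7 h. Of 12 T and NK cell genes tested 9 were higher at 25 h and 3 lower, with a median of 0.15, and 5 had an unadjusted p under 0.05. That list averaged -0.04 to 0.11 at 25 h and -0.12 to 0.04 at 7 h. Of all 14953 genes tested, 1342 had an unadjusted p under 0.05 in this comparison. By adjusted p 0 of either list passed. The part of these cells in the receptor levels was not tested.

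**Figure D5:**
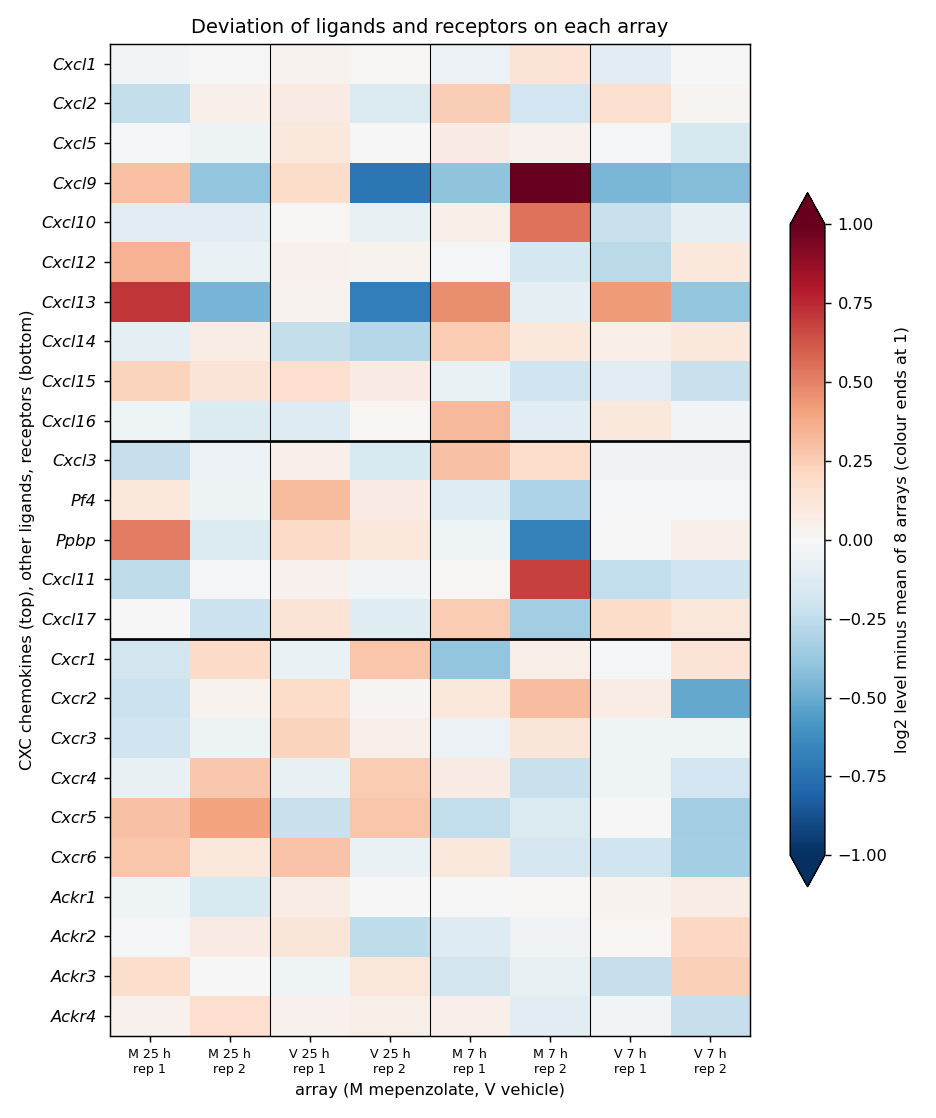
Deviation of each array (columns) from the mean of the 8 arrays in log2 units (colour, ending at 1) for the 10 CXC chemokines, 5 other ligands and 10 receptors (rows). The darkest cell is Cxcl9 on replicate 2 of mepenzolate at 7 h, beside Cxcl10 and Cxcl11 on the same array, and Cxcl13 is red in replicate 1 of the mepenzolate groups and of vehicle at 7 h.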

How the data were processed

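The authors deposited log2 expression values of 34760 probe sets from Affymetrix arrays, made with RMA per the submitters' processing notes (version not given in the sources used here). This method corrects background, matches the intensity distributions of arrays and merges a transcript's probes, and it shrinks differences of dim genes. Values ran from 2.00 to 13.98 and array medians from 6.70 to 6.77. The platform annotation gave 1 gene symbol to 21640 probe sets and several to 1321, and left 11799 unnamed here. Through Entrez identifiers 21553 matched the RefSeq table of GRCm38.p6, and 0 symbols changed. Only probe sets with 1 symbol were used, and the one with the highest mean stood for a gene.

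Genes whose mean reached the 25th percentile (log2 5.93) entered a limma 3.58.1 fit (R 4.3.3) of 1 mean per group and a shared spread, with 4 residual and 4.09 prior degrees of freedom. Benjamini-Hochberg adjustment ran over the 14953 genes tested, at a threshold of 0.05. The comparisons share arrays, so none was set against another. An exact permutation test could not fall below 0.333 with 2 against 2 arrays or 0.0286 with 4 against 4. The fit was tested on simulated data. Figures were drawn with matplotlib 3.10.9 in Python 3.11.15.

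The 10 genes were given, and every other CXC ligand and receptor could be named. Of induced genes and proteases the 3 with the largest moderated t in a comparison could be named, and for genes spanning over log2 1 the 3 genes most like them by Pearson r. Members, lists and rules were chosen with earlier results of these data known. The gene and marker lists held 193 entries, of which 180 were on the array; list values are means of deviations from the 8-array mean. The marker lists of alveolar type 1 cells, fibroblasts, endothelium, mesothelium, cardiac muscle, adipocytes and thymocytes averaged -0.04, -0.03, -0.06, -0.01, -0.06, -0.01 and 0.04 on replicate 2 of mepenzolate at 7 h, each within the range of the other 7 arrays. Same-numbered replicates deviated together at r = -0.02 to 0.40 over 6 pairs of groups. The value was above 0.1 in the 3 pairs among mepenzolate at 7 h, vehicle at 7 h and mepenzolate at 25 h. The labels state no pairing beyond a replicate number, so the main fit did not pair samples. A fit with the replicate number as a block is given among the alternatives.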

Additional observations from a re-analysis of the deposited data

Results flagged for a closer look

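Cxcl10 and Cxcl5 lay on opposite sides of vehicle in mepenzolate lungs at the 2 times, with every mepenzolate array below both vehicle arrays at 25 h and above both at 7 h. For Cxcl10 the difference of the mepenzolate effect, 25 h minus 7 h, was -0.53 ± 0.21 (limma, unadjusted p = 0.0318, adjusted p = 1.00). For Cxcl5, below the filter, it was -0.23 ± 0.13 in a fit without the filter (unadjusted p = 0.109, adjusted p = 1.00). Neither difference passed the test, and Cxcl10 was tested only through its high mepenzolate arrays at 7 h. Among 25 ligands and receptors examined these were the ones with such a pattern, and 527 of 14953 genes tested (3.52%) had it. With 2 arrays per group, no array could be examined against several others of its own group.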

How the results depend on the processing

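No CXC chemokine crossed the threshold under any alternative except Cxcl15 between the times over both treatments, at 0.30 with an adjusted p of 0.0262 by limma with an intensity trend and robust estimation. Signs turned for Cxcl12 at 7 h (0.00507 after quantile normalization, 0.0109 after median centring), for Cxcl1 at 25 h (0.0119 after quantile normalization) and, between the times over both treatments, for Cxcl1 (-0.0154 after quantile normalization) and Cxcl5 (-0.00549 after quantile normalization). With the replicate block, Cxcl10 at 7 h stood at 0.46 ± 0.13, Cxcl13 at 0.45 ± 0.14 at 25 h (adjusted p = 0.873), where it was ± 0.43 without the block, and at 0.31 ± 0.10 over both times (adjusted p = 0.953), and Cxcl15 between the times over both treatments at 0.30 ± 0.05 (adjusted p = 0.0710), and no member changed its call.

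Leaving out each array in turn (lone arrays assumed to vary like the others) turned signs in 27 of 56 comparisons of a tested member, given here as lowest and highest values. Cxcl2 and Cxcl5, below the filter, turned sign in some too, with Cxcl2 at 7 h running from -0.284 to 0.151. For mepenzolate against vehicle at 25 h: Cxcl9 -0.229 to 0.675, Cxcl12 -0.107 to 0.308, Cxcl13 -0.141 to 1.04 and Cxcl16 -0.114 to 0.035. At 7 h: Cxcl1 -0.00112 to 0.19, Cxcl12 -0.20 to 0.17, Cxcl13 -0.24 to 0.58, Cxcl15 -0.0272 to 0.106 and Cxcl16 -0.15 to 0.29. Over both times: Cxcl1 -0.0181 to 0.0789, Cxcl12 -0.0595 to 0.148 and Cxcl16 -0.0968 to 0.124. For the difference of the effect: Cxcl9 -2.16 to 0.18, Cxcl12 -0.096 to 0.319, Cxcl13 -0.31 to 0.87, Cxcl15 -0.0565 to 0.0769 and Cxcl16 -0.33 to 0.11. For 25 h against 7 h in mepenzolate lungs: Cxcl1 -0.145 to 0.049, Cxcl9 -1.99 to 0.35, Cxcl13 -0.65 to 0.53 and Cxcl16 -0.416 to 0.025. In vehicle lungs: Cxcl9 -0.28 to 0.63, Cxcl12 -0.0629 to 0.308 and Cxcl13 -0.752 to 0.0678. Over both treatments: Cxcl1 -0.031 to 0.066, Cxcl9 -0.905 to 0.265 and Cxcl13 -0.498 to 0.095.

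Counts of all genes called also moved. Mepenzolate against vehicle gave 0 at 25 h, 1 with the replicate block and 0 to 1 with an array left out. It gave 0 at 7 h and 0 to 2 with an array left out, and the same range over both times and for the difference of the effect. For 25 h against 7 h in mepenzolate lungs 4 became 1 without the filter, 0 after quantile normalization, 0 with array weights, 9 with the replicate block, 1 in a fit of the compared groups only and 0 to 2 with an array left out. In vehicle lungs 13 became 6 after quantile normalization, 33 with trend and robust estimation, 55 with array weights and 0 to 14 with an array left out. Over both treatments 33 became 72 with the stricter filter, 123 with trend and robust estimation, 73 with the replicate block and 11 to 34 with an array left out. The cause of these changes was not tested. Cxcl2 and Cxcl5 were near background, where differences are compressed.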
